A study of Mus musculus with 11 samples.

Results

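The genes described here are 10 mouse genes around histone supply: 7 that encode replacement histones (*H3f3a*, *H3f3b*, *H2afx*, *H2afz*, *H2afv*, *H2afy* and *H1f0*) and 3 that encode regulators of histone mRNA (*Slbp*, *Npat* and *Casp8ap2*). They were chosen by symbol for their known function, with earlier results of these data known. They are 10 of 53801 gene identifiers, and all 10 were counted in every library. Total RNA, depleted of ribosomal RNA, was sequenced in 11 libraries of neural progenitor cells (NPCs) grown from brains of E13.5 embryos in medium with EGF and bFGF. All cells came from mice of a mixed C57BL/6 and 129SV background and carried 2 floxed *Smg6* alleles (*Smg6* flox/flox). SMG6 is an endonuclease that cuts transcripts in nonsense-mediated mRNA decay (NMD), and the study asked how its loss changes the transcriptome of NPCs.

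The Ctr group held cells with the tamoxifen-inducible Rosa26-CreERT2 recombinase from 3 embryos (SMH_128, SMH_132 and SMH_133, as the sample titles name them), without 4-hydroxytamoxifen (4-OHT). The Ctr + 4-OHT group held cells without the recombinase from 4 embryos (SMH_125, SMH_126, SMH_129 and SMH_131), treated with 4-OHT. For *Smg6*-iKO, cells with Rosa26-CreERT2 came from 4 embryos (SMH_127, SMH_128, SMH_132 and SMH_133) and were given 4-OHT. The labels give 1 µM 4-OHT for 3 days and RNA taken on day 6 after the start, whereas the study's results text describes 6 days in its presence. Rosa26 drives the recombinase in all cell types. Each Ctr embryo also gave a *Smg6*-iKO library, and the 2 control groups differ in both 4-OHT and the transgene.

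Most histone mRNA is made in S phase from replication-dependent genes, whose transcripts end in a conserved stem-loop in place of a poly(A) tail. SLBP binds this stem-loop, NPAT is the coactivator of these genes at the histone locus body, and CASP8AP2 (FLASH) acts there in transcription and 3′ end processing. Replacement histones are made from polyadenylated mRNAs, mostly of genes with introns, throughout the cell cycle and enter chromatin outside replication, and UPF1, a central NMD factor, is also known to act in the decay of stem-loop histone mRNAs.

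*H2afx* is known to make both kinds of mRNA, so the spliced GENCODE M21 transcripts of the 10 genes were searched on the sense strand for the histone stem-loop. The pattern was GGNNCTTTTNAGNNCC with a 6-base stem that pairs fully around a 4-base loop. *H2afx* was the single gene of the 10 with a match, against 44 of 67 replication-dependent histone genes (65.7%) and 49 of 21901 protein-coding genes (0.224%). The match, shown with a replication-dependent H2A gene for comparison and with the 16 bases of the stem-loop in capitals, lay in the 3′ untranslated region, 46 bases after the stop codon, at chr9:44335240-44335255 on the plus strand (GRCm38), with 822 bases of annotated transcript after it. In *Hist1h2ae* it lay 32 bases after the stop codon at chr13:23570668-23570683 on the minus strand, with 151 bases after it.
H2afx: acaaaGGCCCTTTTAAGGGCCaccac
Hist1h2ae: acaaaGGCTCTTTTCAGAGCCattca

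RefSeq promoters (GRCm38.p6, 250 bases before to 50 after each start) were matched for 9 of the 10 genes. They were searched on both strands for the CCAAT box, for E2F sites (TTTCCCGC or TTTGGCGC) and for the CHR element (TTTGAA or, equally, TTCGAA). The CCAAT box was found in 7 of the 9, *H3f3a*, *H3f3b*, *H2afz*, *H2afv*, *Slbp*, *Npat* and *Casp8ap2*, and in 37.4% of 32851 mouse promoters. It was found 4 times in *H2afv* and *H3f3b*, 3 times in *H2afz* and *Slbp*, 2 times in *Npat* and *Casp8ap2* and 1 time in *H3f3a*. An E2F site was found in *Casp8ap2* alone (1.56% of all promoters) and a CHR in *H2afv* alone (19.2%). The promoters of the pair of H2A.Z genes and of *H3f3b* are shown as examples, with CCAAT or its reverse complement ATTGG in capitals. For *H2afz* and *H2afv* the 100 bases before the start are shown (chr3:137864387-137864486, plus strand, and chr11:6444444-6444543, minus strand), and for *H3f3b* the bases from -220 to -90 relative to the RefSeq start (chr11:116024594-116024724, minus strand). This last start lies within the longer gene span of the Ensembl annotation.
H2afz: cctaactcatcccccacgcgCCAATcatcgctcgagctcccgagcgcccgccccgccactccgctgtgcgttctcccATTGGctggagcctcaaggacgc
H2afv: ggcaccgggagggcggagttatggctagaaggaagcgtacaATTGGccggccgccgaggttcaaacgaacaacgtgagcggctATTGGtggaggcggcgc
H3f3b: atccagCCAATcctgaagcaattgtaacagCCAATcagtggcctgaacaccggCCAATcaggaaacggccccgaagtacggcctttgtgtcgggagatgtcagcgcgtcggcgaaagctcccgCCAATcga

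The summed counts of a library lay between 26418249 and 33756875. The targeted gene *Smg6* was at 66.0 ± 4.57 CPM (counts per 1000000 TMM-normalized counts, mean ± SD, n = 4) in *Smg6*-iKO, 69.3 ± 3.22 (n = 4) in Ctr + 4-OHT and 74.4 ± 4.96 (n = 3) in Ctr. It did not pass the test against either control (edgeR adjusted p = 0.703 and 0.148), although it did against Ctr with the embryo as a block (log2 fold change -0.15, adjusted p = 0.0430). The counts are totals over the whole gene and do not show the loss of the floxed part. All 10 neural progenitor markers examined were above 1 CPM in every group, and 5 of them fell against Ctr (*Sox2*, *Sox1*, *Pax6*, *Fabp7* and *Hes5*), none against Ctr + 4-OHT. *Hes5* had the lowest log2 fold change in both, -1.28 against Ctr (adjusted p = 0.00186) and -0.69 against Ctr + 4-OHT (adjusted p = 0.0647). Against Ctr all 10 log2 fold changes were below 0 (median -0.30). Of the 10 markers, 8 were below 0 against Ctr + 4-OHT (median -0.160), and 8 in Ctr + 4-OHT against Ctr (median -0.155). Their sum was at 5261 to 6147 CPM in *Smg6*-iKO, below the 6208 to 6669 of every Ctr library and overlapping with the 5597 to 6849 of Ctr + 4-OHT. Of 4 astrocyte markers, *Gfap* rose against Ctr (log2 fold change 1.33, adjusted p = 0.0288) and none passed against Ctr + 4-OHT, and the sums overlapped, at 291 to 364 CPM in *Smg6*-iKO, 290.2 to 437 in Ctr + 4-OHT and 308 to 400.2 in Ctr. The 7 neuron markers summed to 2094 to 2416 CPM in *Smg6*-iKO, above the 1790 to 1976 of every Ctr library and inside the 1644 to 2676 of Ctr + 4-OHT. None of the 7 passed the test against either control. Against Ctr all 7 log2 fold changes were above 0 (median 0.28), 5 of them with an unadjusted p under 0.05, as had 4834 of 17974 genes tested. All 7 were also above 0 in Ctr + 4-OHT against Ctr (median 0.25). Against Ctr + 4-OHT, 6 of the 7 were above 0 in *Smg6*-iKO, with a median of 0.059. The 4 fibroblast markers summed to 82.1 to 521 CPM in *Smg6*-iKO, 99.3 to 321 in Ctr + 4-OHT and 115 to 171 in Ctr, and none passed. All 4 were above 0 against Ctr + 4-OHT (median 0.45) and against Ctr (median 0.70). *Col1a1* was at 1.26 against Ctr (unadjusted p = 0.0449, adjusted p = 0.175). Between the controls 3 of the 4 were above 0 (median 0.34). The 6 markers of the oligodendrocyte lineage summed to 603 to 737 CPM in *Smg6*-iKO, 687 to 918 in Ctr + 4-OHT and 617 to 680.4 in Ctr, so the control groups did not overlap, and none passed in any comparison. Of 5 markers of endothelium and pericytes 4 were tested and none passed, with sums of 5.64 to 8.28 CPM in *Smg6*-iKO, 4.88 to 6.29 in Ctr + 4-OHT and 5.97 to 7.49 in Ctr. All 4 were above 0 against Ctr + 4-OHT (median 0.52), *Rgs5* at 0.82 (unadjusted p = 0.00398, adjusted p = 0.107). None of 5 microglia and 3 blood markers reached a mean of 1 CPM in any group. The part of these markers in the results was not tested. In such bulk samples, fewer cells of a type and less RNA per cell cannot be told apart.

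The levels of the 10 genes spanned a wide range per length. In Ctr, *H1f0* was at 207 CPM per kb of exon and *H3f3b* at 187, and their libraries overlapped. *H2afx* followed at 86.7, *H2afv* at 68.1 and *H2afy* at 33.8. *Npat* at 15.03, *H2afz* at 11.8, *Casp8ap2* at 9.09, *Slbp* at 8.54 and *H3f3a* at 6.30 CPM per kb formed the lower end, where *Casp8ap2* and *Slbp* overlapped. The order of the means was the same in all 3 groups. In *Smg6*-iKO, *H1f0* and *H3f3b* no longer overlapped, whereas *H2afz* (9.77 CPM per kb) and *Casp8ap2* (9.15) did.

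Reads that mapped to several places were not counted, and this touches the low levels of *H3f3a* and *H2afz*. Of the 50-base words in their transcripts, the length of a read, 27.1% (*H3f3a*) and 35.4% (*H2afz*) also occurred in annotated transcripts of other genes, against 0 in *H2afv*, *Npat* and *Casp8ap2* and 5.68% to 9.66% in the other 5 genes. Copies outside annotated transcripts were not searched. The levels of *H3f3a* and *H2afz* are therefore uncertain, as are those of any part of *H2afx* that replication-dependent H2A genes share, whereas the comparison of one gene between groups uses the same countable positions throughout. Per 1000 words unique to the gene, *H3f3a* was at 8.32 CPM and *H2afz* at 16.1 in Ctr, still below *H3f3b* (198) and *H2afv* (68.2). The order given above holds per kb only. Per unique words, *H2afz* lay above *Npat* in every group (*Npat* 15.1 in Ctr). *Slbp* lay above *Casp8ap2* in Ctr (9.23 and 8.95) but below it in the other groups.

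**Figure D1:**
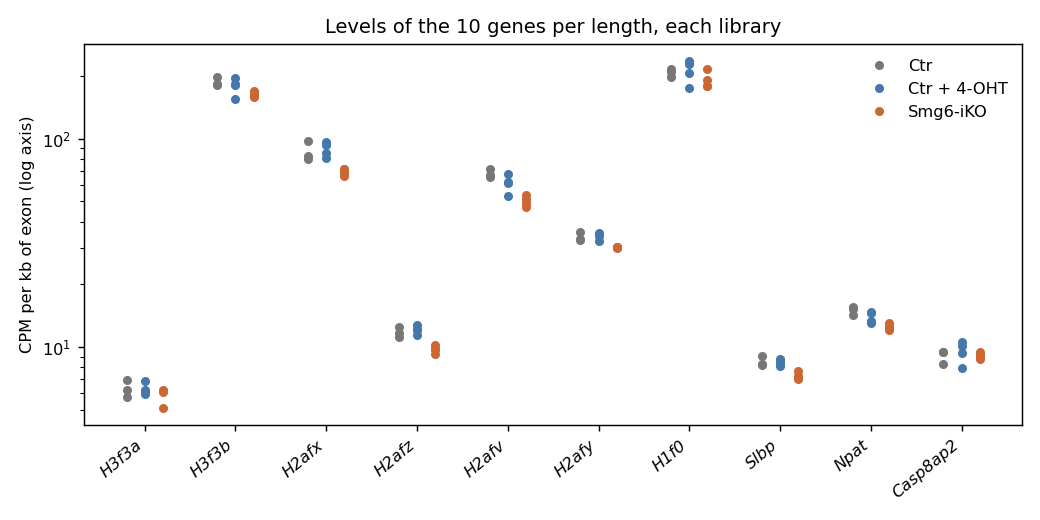
CPM per kb of exon (log axis) of the 10 genes in each of the 11 libraries, coloured by group. *H1f0* and *H3f3b* lie highest and *H3f3a* lowest in every group, with means in Ctr of 207, 187 and 6.30.

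Against Ctr + 4-OHT, 1 of the 10 genes fell in *Smg6*-iKO and none rose. This was *H2afx*, which encodes H2A.X, the H2A form that is phosphorylated at DNA breaks, and the background was 0.416% of 17558 genes tested called lower. The log2 fold changes of all 10 genes were below 0 with a median of -0.16, against 0.012 over all genes tested. Against Ctr, 6 genes fell (*H3f3b*, *H2afx*, *H2afz*, *H2afv*, *Slbp* and *Npat*) and none rose, with a background of 4.98% of 17974 genes called lower. Here 9 of 10 were below 0, with a median of -0.21 against 0.0055 over all genes tested. All 10 genes passed the filter on low counts in each comparison. The comparisons share the 4 *Smg6*-iKO libraries and are not independent of each other.

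With the embryo as a block, 7 genes fell against Ctr, *H2afy* in addition (log2 fold change -0.17, adjusted p = 0.0216), and the background rose to 11.2%. DESeq2's Wald test called 5 genes lower against Ctr + 4-OHT (*H2afx*, *H2afz*, *H2afv*, *H2afy* and *Slbp*), with a background of 1.37% of the 36098 genes it took in, low-count genes included, and of 2.81% of the 17554 of these that edgeR also tested. In *H2afx*, *H2afz*, *H2afy* and *Slbp*, every *Smg6*-iKO library lay below every control library, a pattern that 3.5% of 18123 genes showed. In *H3f3b*, *H2afv* and *Npat*, the *Smg6*-iKO libraries lay below all 3 Ctr libraries but overlapped with Ctr + 4-OHT. Over all genes, 11.8% of 18123 had every *Smg6*-iKO library below every Ctr library. *H3f3a*, *H1f0* and *Casp8ap2* overlapped with both controls.

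**Figure D2:**
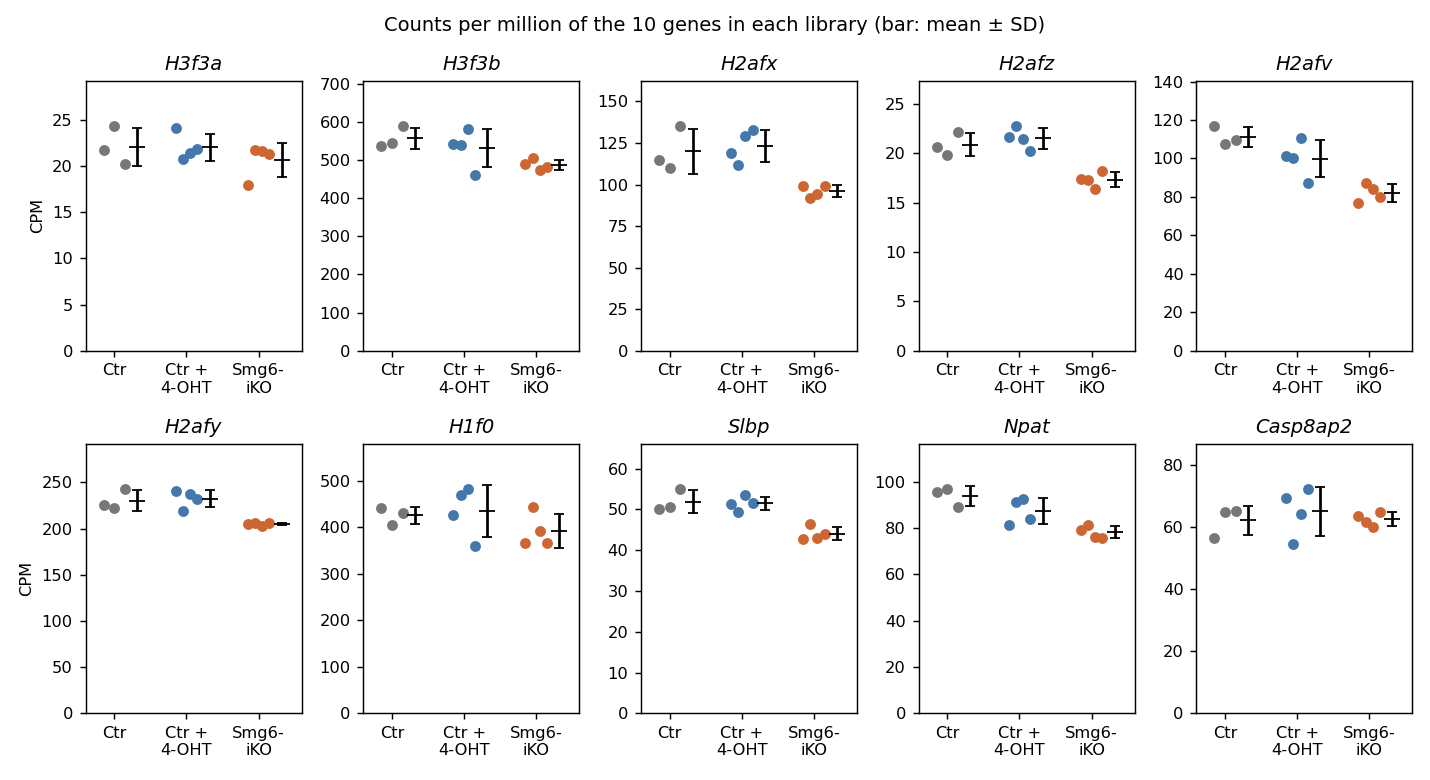
CPM of each gene in each library of the 3 groups, on a linear axis from 0 that differs between panels, with the mean ± SD beside the points. The *Smg6*-iKO libraries lie below all control libraries in *H2afx*, *H2afz*, *H2afy* and *Slbp* and among them in *H1f0* and *Casp8ap2*, and in *H3f3a* all but that of embryo SMH_127 lie among them.

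H3.3, the replacement form of H3, is encoded by *H3f3a* and *H3f3b*. *H3f3b* was at 537, 545 and 589 CPM in Ctr, at 461, 540, 542 and 582 in Ctr + 4-OHT and at 474, 480, 488 and 504 in *Smg6*-iKO. The *Smg6*-iKO libraries lay below all of Ctr, whereas the lowest value of all was that of Ctr + 4-OHT embryo SMH_131. *H3f3b* fell by 0.19 on the log2 scale against Ctr (SE 0.055, edgeR adjusted p = 0.04998, just inside the threshold of 0.05). This call held without *Smg6*-iKO embryo SMH_128 and was lost without any other library, at an adjusted p of 0.0996, 0.0902 and 0.129 without Ctr embryos SMH_128, SMH_132 and SMH_133 and of 0.0990, 0.116 and 0.127 without *Smg6*-iKO embryos SMH_127, SMH_132 and SMH_133. It was also lost with all libraries in one fit (adjusted p = 0.152), with upper-quartile normalization (0.0767) and with either other filter on low counts (0.0567 and 0.0571). The difference from Ctr + 4-OHT was -0.12 (SE 0.073, adjusted p = 0.461), -0.18 without the library of embryo SMH_131 (adjusted p = 0.183) and -0.074 without that of SMH_129 (adjusted p = 0.658).

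*H3f3a* was at 20.2 to 24.4 CPM in Ctr (median 21.7), at 20.8 to 24.1 in Ctr + 4-OHT and at 18.0, 21.3, 21.7 and 21.8 in *Smg6*-iKO. The groups overlapped but for embryo SMH_127, whose *Smg6*-iKO library held the lowest value. The log2 fold changes were -0.082 against Ctr + 4-OHT (SE 0.081, adjusted p = 0.660) and -0.097 against Ctr (SE 0.091, adjusted p = 0.536). Single libraries moved them, to -0.021 without *Smg6*-iKO embryo SMH_127 and -0.045 without Ctr + 4-OHT embryo SMH_125 against the first control, and to -0.034 without *Smg6*-iKO embryo SMH_127, -0.032 without Ctr embryo SMH_132 and -0.16 without Ctr embryo SMH_133 against the second, which was -0.031 with the embryo as a block. Of the H3.3 counts per length, *H3f3a* made up 3.49% ± 0.312 (SD, n = 4) in *Smg6*-iKO, 3.43% ± 0.398 (n = 4) in Ctr + 4-OHT and 3.27% ± 0.416 (n = 3) in Ctr. None of the 3 differences between the groups passed the test (two-sided exact permutation p = 0.914, 0.457 and 0.629, adjusted over 6 tests 0.914, 0.891 and 0.891). The smallest p these group sizes allow, 0.0286, would not pass alone after that adjustment, so the test could hardly have shown a difference.

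H2A.X was measured through *H2afx*, which was at 110, 115 and 135 CPM in Ctr, at 112, 119, 129.3 and 132.7 in Ctr + 4-OHT and at 91.97, 94.6, 98.9 and 99.2 in *Smg6*-iKO. All 4 *Smg6*-iKO libraries lay below all 7 control libraries, and they spread less than the controls did. The gene fell by 0.34 on the log2 scale against Ctr + 4-OHT (SE 0.064, adjusted p = 0.0350), a change of -21.2%, and by 0.32 against Ctr (SE 0.072, adjusted p = 0.0230). The call against Ctr + 4-OHT was lost on leaving out any single library other than Ctr + 4-OHT embryo SMH_126, although the log2 fold change stayed between -0.39 and -0.31. The adjusted p was then 0.0585, 0.0645 and 0.0733 without Ctr + 4-OHT embryos SMH_125, SMH_129 and SMH_131, and 0.0876, 0.0660, 0.114 and 0.0974 without *Smg6*-iKO embryos SMH_127, SMH_128, SMH_132 and SMH_133. It was also lost with the gene length correction (0.0503). Against Ctr the call was lost without Ctr embryo SMH_128 (0.0575) or SMH_133 (0.0736), or *Smg6*-iKO embryo SMH_132 (0.0529) or SMH_133 (0.0612). *H2afx* is also the gene that carries the stem-loop shown above.

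H2A.Z, a replacement H2A found around transcription start sites, is encoded by *H2afz* and *H2afv*. *H2afv* was at 107, 109 and 117 CPM in Ctr, at 87.1, 100.2, 101 and 111 in Ctr + 4-OHT and at 76.8, 80.1, 84.2 and 87.5 in *Smg6*-iKO. The *Smg6*-iKO libraries lay well below Ctr, and a single Ctr + 4-OHT library, of embryo SMH_131, lay among them. *H2afv* fell by 0.44 on the log2 scale against Ctr (SE 0.060, adjusted p = 0.00318), a change of -26.1%, with the call kept when any single library was left out (adjusted p between 0.00225 and 0.0209). The difference from Ctr + 4-OHT was -0.27 (SE 0.076, adjusted p = 0.114), and -0.34 without embryo SMH_131 (adjusted p = 0.0647).

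*H2afz* was at 19.8, 20.7 and 22.2 CPM in Ctr, at 20.2, 21.4, 21.7 and 22.8 in Ctr + 4-OHT and at 16.4, 17.3, 17.4 and 18.3 in *Smg6*-iKO. No *Smg6*-iKO library reached any control library. The gene fell by 0.27 against Ctr on the log2 scale (SE 0.072, adjusted p = 0.0446), and the difference from Ctr + 4-OHT was -0.30 (SE 0.066, adjusted p = 0.0634). The call against Ctr held without *Smg6*-iKO embryo SMH_128 and was lost without any other library: the adjusted p was 0.118, 0.0693 and 0.122 without Ctr embryos SMH_128, SMH_132 and SMH_133 and 0.0863, 0.103 and 0.0721 without *Smg6*-iKO embryos SMH_127, SMH_132 and SMH_133. It was also lost with upper-quartile normalization (adjusted p = 0.0626), with either other filter on low counts (0.0615 and 0.0535) and with the gene length correction (0.0556).

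Within H2A.Z, *H2afz* made up 16.3% ± 1.15 of counts per length (SD, n = 4) in *Smg6*-iKO, 16.6% ± 1.13 (n = 4) in Ctr + 4-OHT and 14.7% ± 0.880 (n = 3) in Ctr. The 3 differences did not pass the two-sided exact permutation test (*Smg6*-iKO against Ctr + 4-OHT p = 0.743, against Ctr p = 0.171, and Ctr + 4-OHT against Ctr p = 0.0857, adjusted over 6 tests 0.891, 0.514 and 0.514). The smallest p these group sizes allow is 0.0286. A single difference at that p would not pass after adjustment over 6 tests, so the failure to pass says little.

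*H2afy*, which encodes macroH2A1, the H2A form with a large C-terminal macro domain, was at 222, 226 and 243 CPM in Ctr, at 219, 232, 237 and 240.1 in Ctr + 4-OHT and at 203, 205, 206 and 206 in *Smg6*-iKO. The *Smg6*-iKO libraries spread by less than the counting error (coefficient of variation 0.639% against 1.27%) and lay below every control library. The log2 fold change was -0.17 against either control (adjusted p = 0.120 and 0.0664) and passed the test against Ctr with the embryo as a block, as given above.

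*H1f0* encodes H1.0, the linker histone that accumulates in cells that stop dividing. Its libraries were at 404, 431 and 441 CPM in Ctr, at 359, 426, 469.9 and 483 in Ctr + 4-OHT and at 366, 367, 392 and 444 in *Smg6*-iKO. The groups overlapped, with a Ctr + 4-OHT library lowest and another highest. The log2 fold changes were -0.14 against Ctr + 4-OHT (SE 0.099, adjusted p = 0.533) and -0.12 against Ctr (SE 0.074, adjusted p = 0.343). The first was -0.22 without Ctr + 4-OHT embryo SMH_131, -0.20 without *Smg6*-iKO embryo SMH_128 and -0.085 without Ctr + 4-OHT embryo SMH_129, and the second -0.18 without *Smg6*-iKO embryo SMH_128.

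Among the regulators, *Slbp* was at 49.96, 50.6 and 55.1 CPM in Ctr, at 49.4, 51.4, 51.5 and 53.5 in Ctr + 4-OHT and at 42.8, 43.0, 44.0 and 46.5 in *Smg6*-iKO. The control groups covered nearly the same range, and every *Smg6*-iKO library lay below it. *Slbp* fell by 0.23 on the log2 scale against Ctr (SE 0.059, adjusted p = 0.0354), and the difference from Ctr + 4-OHT was -0.21 (SE 0.055, adjusted p = 0.0958). The call against Ctr held without *Smg6*-iKO embryo SMH_128 and was lost without any other library: the adjusted p was 0.0789, 0.0695 and 0.0967 without Ctr embryos SMH_128, SMH_132 and SMH_133 and 0.0880, 0.0849 and 0.0885 without *Smg6*-iKO embryos SMH_127, SMH_132 and SMH_133.

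*Npat* was at 89.1, 95.6 and 96.9 CPM in Ctr, at 81.2, 83.8, 91.3 and 92.5 in Ctr + 4-OHT and at 75.7, 76.3, 79.1 and 81.2 in *Smg6*-iKO. The *Smg6*-iKO libraries lay below Ctr, with the highest of them level with the lowest of Ctr + 4-OHT. *Npat* fell by 0.27 against Ctr on the log2 scale (SE 0.055, adjusted p = 0.0174), a call lost without Ctr embryo SMH_128 (0.0657) or SMH_132 (0.0648) or *Smg6*-iKO embryo SMH_133 (0.0578). The difference from Ctr + 4-OHT was -0.15 (SE 0.059, adjusted p = 0.237).

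*Casp8ap2* was at 56.6, 64.7 and 65.0 CPM in Ctr, at 54.4, 64.0, 69.3 and 72.3 in Ctr + 4-OHT and at 59.8, 61.7, 63.6 and 64.8 in *Smg6*-iKO. The *Smg6*-iKO libraries lay inside the range of both controls. The log2 fold changes were -0.046 against Ctr + 4-OHT (SE 0.084, adjusted p = 0.832) and 0.0098 against Ctr (SE 0.066, adjusted p = 0.946), and both change sign under other settings. Of the 3 regulators, *Casp8ap2* was the one whose difference from Ctr lay within 1 standard error of 0.

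**Figure D3:**
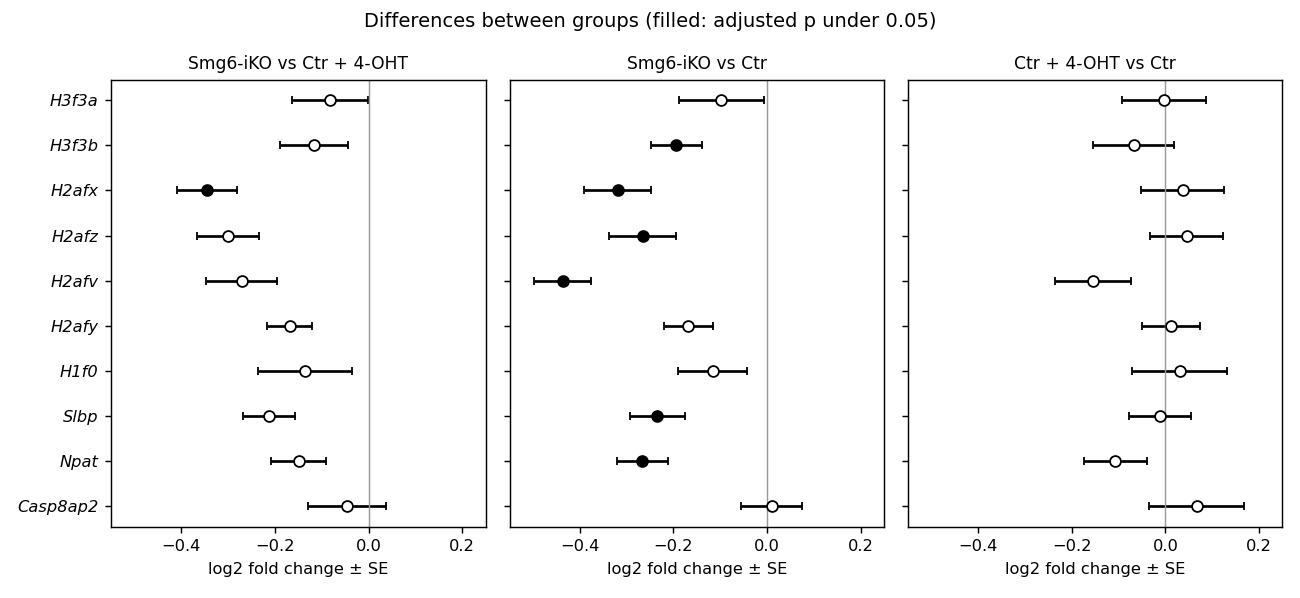
Log2 fold change ± SE of the 10 genes in the 3 comparisons, with filled points for an adjusted p under 0.05. Points lie left of 0 in both comparisons of *Smg6*-iKO except *Casp8ap2* against Ctr, with 1 and 6 of them filled, and around 0 between the controls, with none filled.

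Within the 3 embryos that gave both a Ctr and a *Smg6*-iKO library, *H3f3b*, *H2afx*, *H2afz*, *H2afv*, *H2afy*, *Slbp* and *Npat* were lower in *Smg6*-iKO in 3 of 3, as were 25.7% of 18123 genes. The differences in log2 CPM in embryos SMH_128, SMH_132 and SMH_133 were -0.42, -0.35 and -0.45 in *H2afv* and -0.25, -0.27 and -0.28 in *H2afz*, the evenest of the genes. They were -0.32, -0.22 and -0.45 in *H2afx* and -0.10, -0.23 and -0.32 in *Slbp*, with embryo SMH_133 farthest from 0 in both. *H3f3a* (0.0051, -0.17 and 0.076), *H1f0* (0.011, -0.044 and -0.23) and *Casp8ap2* (0.13, -0.11 and -0.0045) differed in sign between embryos.

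**Figure D4:**
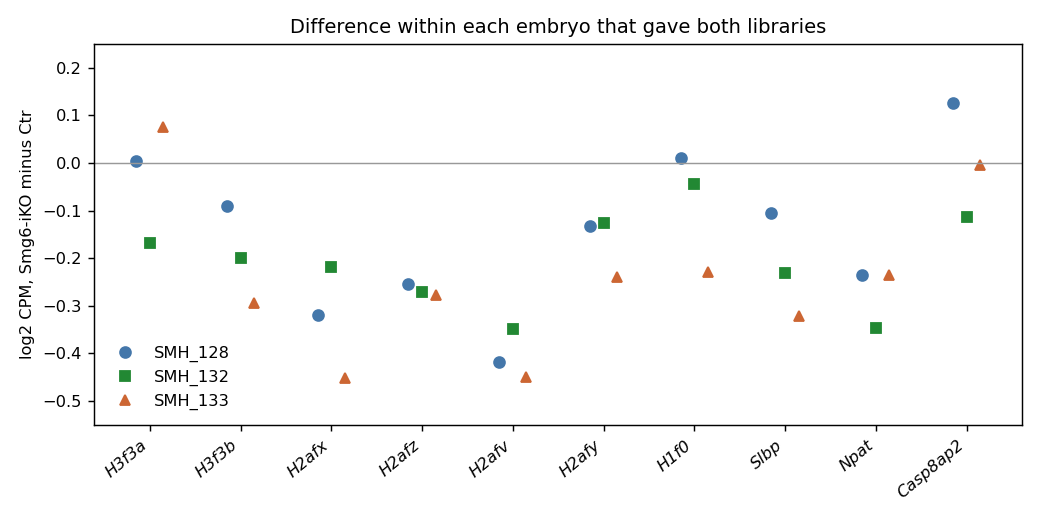
Difference in log2 CPM between the *Smg6*-iKO and the Ctr library of the same embryo, for each of the 10 genes and embryos SMH_128, SMH_132 and SMH_133. All 3 points lie below 0 in 7 genes, as in 25.7% of 18123 genes, and on both sides of it in *H3f3a*, *H1f0* and *Casp8ap2*.

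Between the control groups, which differ in 4-OHT and in the transgene together, none of the 10 genes passed the test, with a background of 0.221% of 17665 genes called in either direction. None had an unadjusted p under 0.05 in edgeR, and DESeq2's Wald test also called 0. The largest difference was that of *H2afv*, at -0.15 in Ctr + 4-OHT against Ctr (SE 0.081, adjusted p = 0.655), followed by *Npat* at -0.11 (SE 0.068, adjusted p = 0.703). These were 2 of the 3 genes whose *Smg6*-iKO libraries lay below Ctr but not below Ctr + 4-OHT. The third, *H3f3b*, was at -0.067 (SE 0.087, adjusted p = 0.853). Whether the difference of a gene from one control exceeds that from the other was not tested. Within Ctr + 4-OHT, the library of embryo SMH_131 was the lowest for *H3f3b*, *H2afv*, *H1f0* and *H2afz* and the highest for *H2afx* and *Casp8ap2*.

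The other genes of the pathway were read from lists by known function. Over all genes tested, 0.416% were called lower against Ctr + 4-OHT and 4.98% against Ctr. Of 4 further replacement histone genes (*H2afy2*, *H2afj*, *H1fx* and *Cenpa*), none passed the test against Ctr + 4-OHT and *Cenpa*, the centromeric H3, fell against Ctr (log2 fold change -0.37, adjusted p = 0.00886). Of 6 genes of the histone locus body and its control by cyclin E, none and 1 fell, the kinase *Cdk2* against Ctr (-0.28, adjusted p = 0.0299). Of 15 genes of histone pre-mRNA 3′ end processing, none and 1 fell, *Snrpe*, a core snRNP protein, against Ctr (-0.26, adjusted p = 0.0250), with medians of -0.084 and -0.069. That count of 1 in 15 is near the share over all genes.

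None of 8 genes of histone mRNA translation and decay passed in either comparison, *Upf1* included. *Upf1* was at 0.24 against Ctr + 4-OHT (edgeR unadjusted p = 0.0239, adjusted p = 0.220). Against Ctr it was at 0.22 (unadjusted p = 0.0439, adjusted p = 0.172). Of the 8, 4 were above 0 and 4 below against Ctr + 4-OHT, and 2 above and 6 below against Ctr. Of 20 histone chaperones and deposition factors, none fell against Ctr + 4-OHT and 3 fell against Ctr: the H3–H4 chaperone *Asf1a* (-0.21, adjusted p = 0.0458), the CENP-A chaperone *Hjurp* (-0.29, adjusted p = 0.0164) and *Anp32e*, which removes H2A.Z (-0.28, adjusted p = 0.0111). No gene of these 5 lists was called higher. *Cenpa*, *Cdk2*, *Snrpe*, *Asf1a*, *Hjurp* and *Anp32e* are named because they passed.

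The replication-dependent histone genes that these regulators serve stood lower still. Of 67 genes, 58 were tested, and 32 fell against Ctr + 4-OHT and 46 against Ctr, with none higher and medians of -0.41 and -0.47 on the log2 scale. Of the 29 called lower in both, the first 5, ranked by the smaller of their changes against the controls, were *Hist1h2ad* (-0.59 and -0.58), *Hist1h2bk* (-0.60 and -0.55), *Hist1h2ag* (-0.58 and -0.55), *Hist1h2bb* (-0.52 and -0.68) and *Hist1h2ab* (-0.52 and -0.50). The medians of the 10 genes, -0.16 and -0.21, were nearer to 0. The difference between the lists was not tested. Near-identical histone genes share reads, so values of single members of that family are uncertain.

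Cell cycle genes were counted in the same fits. Of 15 S phase genes, 1 fell against Ctr + 4-OHT, the helicase subunit *Mcm3* (-0.33, adjusted p = 0.0407), and 10 against Ctr, *Mcm3* included (-0.35, adjusted p = 0.0136), and of 15 genes of G2 and M phase, 4 and 15 fell. The 4 were *Ccna2* (-0.45 and -0.46), *Ccnb1* (-0.44 and -0.47), *Mki67* (-0.42 and -0.52) and *Cdk1* (-0.42 and -0.44). The summed S phase genes were at 1231 to 1361 CPM in *Smg6*-iKO, 1421 to 1704 in Ctr + 4-OHT and 1440 to 1707 in Ctr, and those of G2 and M phase at 2858 to 3309, 3671 to 4642 and 3972 to 4179 CPM. In both sums every *Smg6*-iKO library lay below every control library, as in *H2afx*, *H2afz*, *H2afy* and *Slbp*. Their part in the differences of the 10 genes was not tested.

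**Figure D5:**
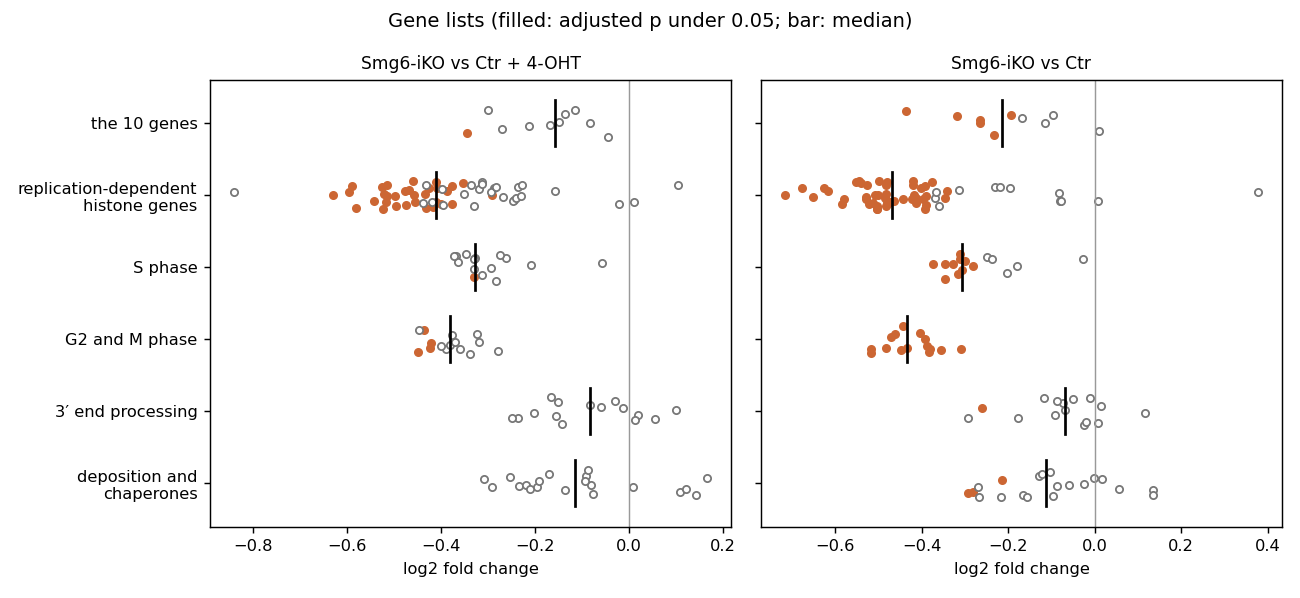
Log2 fold change of each tested gene in *Smg6*-iKO against Ctr + 4-OHT (left) and Ctr (right), for the 10 genes and 5 lists, with filled points for an adjusted p under 0.05 and a bar at the median. The replication-dependent histone genes and the G2 and M phase genes lie farthest left, with medians of -0.41 and -0.38 (left) and -0.47 and -0.43 (right), against -0.16 and -0.21 for the 10 genes.

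The genes whose log2 CPM ran most like that of *Slbp* over the 11 libraries were *Hist1h2bc* (Pearson's r = 0.969), *Zfp146* (0.964), *Hist1h3d* (0.963), *Nrarp* (0.961) and *Vrk1* (0.959). For *H2afz* they were *Cdca4* (0.970), *Phax* (0.961), *Tmem14c* (0.923), *Eif4h* (0.922) and *Hist1h2ad* (0.921). Replication-dependent histone genes were 2 of the 5 for *Slbp* and 1 of the 5 for *H2afz*. These are descriptions over 11 libraries that share the group structure and their normalization, taken as the highest of 18123 genes.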

How the data were processed

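RNA of 11 NPC cultures was sequenced (Ctr n = 3, Ctr + 4-OHT n = 4, *Smg6*-iKO n = 4), with groups and embryo numbers taken from the sample labels. The authors demultiplexed single 50-base reads with bcl2fastq 1.8.4, mapped them to GRCm38 with STAR 2.5.4b and counted stranded, uniquely mapped reads per Ensembl gene with featureCounts 1.5.0, and they deposited these raw counts without normalization, as the methods and the submitters' processing notes state. Symbols and positions came from GENCODE M21. No pair of libraries of a group was a duplicate.

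Only the libraries of the groups compared entered each fit, in R 4.3.3 with edgeR 4.0.16 (filterByExpr, TMM, quasi-likelihood test, Benjamini-Hochberg over all genes tested, adjusted p under 0.05), and the code was tested on simulated data. CPM used TMM factors over 11 libraries, and log2 CPM a prior count of 2. Shares were compared by exact permutation. The embryo numbers pair libraries of the same animal: deviations from the group means correlated at 0.328 to 0.425 in the 3 same-embryo pairs and at -0.265 to 0.0948 otherwise. The study's methods use no block, so it was an alternative. The others were DESeq2 1.42.0 (size factors or Wald test), upper-quartile normalization, no filter or a minimum of 10 counts per library, one fit of all libraries, a gene length correction (loess span 0.3), other scales for the shares (one of them, unique 50-base words in place of length, chosen after seeing the data), and each library left out.

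Members and lists were chosen with earlier results of these data known. The genes named were the 10 genes, *Smg6*, of each list up to 5 genes called in one direction in both comparisons of *Smg6*-iKO, ranked by the smaller absolute log2 fold change, and the 5 genes most correlated with *Slbp* and *H2afz*. Genes named outside this rule were chosen after their values were seen. Replicates are separate embryos. The lowest member count, 457 in *H2afz*, has a counting error of 4.68%, near the whole coefficient of variation of that gene in *Smg6*-iKO (4.33%) and Ctr + 4-OHT (4.85%).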

Additional observations from a re-analysis of the deposited data

Results flagged for a closer look

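Of 24 sets of 4 libraries examined (10 genes and both shares in 2 groups), 1 held a library far from the others. This was *H3f3a* in the *Smg6*-iKO library of embryo SMH_127, at a log2 CPM of 4.17, whose gap to the nearest library took up 0.882 of the group's whole range, above Dixon's critical value for 4 libraries. Chance marks about 1 in 20 such sets. *H3f3a* is one of the genes whose reads are shared with other loci, and its comparisons did not pass the test in any setting.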

How the results depend on the processing

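Of the results with a test, those of the 10 genes kept their direction in most settings, whereas calls near the threshold were gained or lost. With a library left out, uncalled log2 fold changes ranged in *H3f3a* from -0.16 to -0.032 against Ctr and from -0.11 to -0.021 against Ctr + 4-OHT, in *H1f0* from -0.18 to -0.084 and from -0.22 to -0.085, and in *H3f3b* against Ctr + 4-OHT from -0.18 to -0.074.

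Against Ctr + 4-OHT, members called numbered 2 with all libraries in one fit, 5 with DESeq2's Wald test and 0 with the gene length correction, and 0 to 1 with a library left out. The 206 genes called in either direction, of 17558 tested, became 418 without a filter, 484 in one fit and 880 with DESeq2, and 66 to 174 with a library left out. Over the 7 other settings they numbered 180 to 880. Against Ctr, members called numbered 3 with upper-quartile normalization and 1 to 6 with a library left out. Over the 9 other settings there, *H2afx*, *H2afv* and *Npat* were called in 9, *Slbp* in 8 (highest adjusted p 0.0513), *H3f3b* and *H2afz* in 5 (0.152 and 0.0626) and *H2afy*, uncalled as reported, in 4. The 1663 genes called in either direction, of 17974 tested, became 2714 without a filter, 796 in one fit, 3854 with the embryo as a replicate block and 3714 with the replicate block and the gene length correction, and 570 to 2524 with a library left out. Totals of the settings not named, upper-quartile normalization among them, lay between 796 and 3854. Between the controls, 39 genes became 198 without a filter, 60 in one fit and 168 with DESeq2, and 5 to 54 with a library left out. The replicate block left the other members' calls against Ctr as they were, and the within-embryo differences of the shares, 0.366 percentage points for *H3f3a* and 1.24 for *H2afz*, cannot pass with 3 pairs (smallest p 0.25). The causes were not tested.

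The share of *H3f3a* in H3.3 ranged with a library left out from -0.076 to 0.208 percentage points against Ctr + 4-OHT, from -0.0043 to 0.410 against Ctr and from -0.062 to 0.352 between the controls, and the share of *H2afz* in H2A.Z from -0.822 to 0.049 against Ctr + 4-OHT. None of the differences as reported passed the test. With a library left out against Ctr or between the controls, the smallest possible p is 0.0667 or 0.1, so those tests could not pass.

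Log2 fold changes that changed sign were all near 0 and uncalled. *Casp8ap2* reached -0.012 against Ctr with the gene length correction, -0.018 with the replicate block added to it, and ran from -0.050 to 0.041 with a library left out, and from -0.12 to 0.0036 against Ctr + 4-OHT. Between the controls, *H3f3a* reached 0.0024 with upper-quartile normalization and 0.0057 without a filter. With a library left out there, *H3f3a* ran from -0.057 to 0.073, *H3f3b* from -0.11 to 0.0015, *H2afx* from -0.022 to 0.14, *H2afy* from -0.015 to 0.059, *H1f0* from -0.025 to 0.12 and *Slbp* from -0.038 to 0.040. H3.3 and H2A.Z levels rest on the uniquely mapped part of their transcripts.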
